A study of Mus musculus with 2 samples.

Results

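A set of 10 genes of the ligament and matricellular group were followed through the cells of mouse periodontal tissue. They were Postn (periostin), Tnc (tenascin-C), Tnmd (tenomodulin), the thrombospondins Thbs1, Thbs2 and Thbs4, the microfibril-associated genes Mfap4 and Mfap5, Tgfbi and Ctgf. They were taken by symbol from the feature list, and all 10 were found among the 31053 genes counted. Single-cell RNA sequencing had been run on gingival mucosa together with scrapings of the alveolar bone surface from C57BL/6 wild-type mice aged 8 weeks. The control library pooled 5 untreated mice, and the LIP library pooled 5 mice with ligature-induced periodontitis, in which a thread tied around a molar provokes inflammation and bone loss, taken 1 week after the ligature. Since each condition had 1 library and its cells carry no label of the mouse they came from, no test between conditions was possible. The intervals given below cover counting error only, at the 95% level, and say nothing about variation between mice.

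Matricellular proteins are secreted into the extracellular matrix but act mainly by modulating how cells attach to it and how growth factors and collagen fibres behave, rather than by carrying load themselves. Periostin is abundant in the periodontal ligament, the collagenous tissue that ties the tooth root to the alveolar bone, and in the periosteum, and it assists collagen assembly. Tenascin-C is typically raised at sites of injury and mechanical load. Tenomodulin is a membrane protein typical of tendon and ligament cells. Mfap4 and Mfap5 associate with elastic microfibrils, Tgfbi is a relative of periostin with the same kind of fasciclin domains, and Ctgf belongs to the CCN family that binds growth factors.

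On the GRCm38 build, the reference behind the mm10 counts, Postn lies at chr3:54361109-54391037 on the plus strand, Tnc at chr4:63959785-64047015 on the minus strand, and Tnmd at chrX:133850980-133865577 on the plus strand. Thbs1 lies at chr2:118111876-118127133 (plus), Thbs2 at chr17:14665500-14694235 (minus) and Thbs4 at chr13:92751590-92794818 (minus). Mfap4 lies at chr11:61485431-61488900 (plus), Mfap5 at chr6:122505845-122529290 (plus), Tgfbi at chr13:56609523-56639562 (plus) and Ctgf at chr10:24595442-24598683 (plus). All 10 are protein-coding and none overlaps another gene on its own strand, whereas Thbs1 and Mfap4 overlap counted genes on the opposite strand, Gm29233 and Mapk7.

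The promoters of 3 members that were higher together in fibroblast-like cells of the LIP library, Postn, Tnc and Thbs4, are shown to let the values below be read against their sequence. Each is the 250 bases before a RefSeq transcription start (GRCm38.p6), written along the gene, and capitals mark the letters TATAAA, those of CATTCC and those of CAGACA, found on either strand. RefSeq promoters were matched for 6 of the 10 members, and Postn and Tnc each had 2 starts, of which 1 is shown. Postn is chr3:54360857-54361106 (plus strand), Tnc is chr4:64047016-64047265 (minus strand) and Thbs4 is chr13:92794819-92795068 (minus strand).
Postn: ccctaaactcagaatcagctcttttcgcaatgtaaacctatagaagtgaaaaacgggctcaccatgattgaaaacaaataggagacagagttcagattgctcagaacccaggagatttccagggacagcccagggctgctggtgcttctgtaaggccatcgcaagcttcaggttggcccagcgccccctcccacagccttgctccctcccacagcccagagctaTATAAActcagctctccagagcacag
Tnc: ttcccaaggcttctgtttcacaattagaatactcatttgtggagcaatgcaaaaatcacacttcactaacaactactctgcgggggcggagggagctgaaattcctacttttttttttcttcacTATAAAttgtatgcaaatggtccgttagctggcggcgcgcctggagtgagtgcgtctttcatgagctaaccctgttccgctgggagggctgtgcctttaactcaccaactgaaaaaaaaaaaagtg
Thbs4: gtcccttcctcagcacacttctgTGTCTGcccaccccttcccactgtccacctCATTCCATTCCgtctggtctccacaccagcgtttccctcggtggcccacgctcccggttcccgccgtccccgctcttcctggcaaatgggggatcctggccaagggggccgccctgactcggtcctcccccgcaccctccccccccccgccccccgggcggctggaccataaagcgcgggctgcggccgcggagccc

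The Postn window held TATAAA, the core letters of a TATA box, from 26 to 21 bases before the start, and the Tnc window held it from 126 to 121 bases before the start. At the starts not shown, the Postn window lacked TATAAA and the Tnc window held both TATAAA and CAGACA. Thbs4 lacked TATAAA but held overlapping copies of CATTCC, the core of the sequence bound by TEAD factors, between 197 and 187 bases before the start, and CAGACA, the core bound by SMAD proteins, on the opposite strand. Of 32851 promoter windows of the same length, 12.4% held TATAAA, 12.6% CATTCC and 17.1% CAGACA on either strand. The E-box pattern CANNTG, also searched, was in 66.2% of windows and occurred in the Tnc and Thbs4 windows but not in the Postn window. These matches describe the letters and do not show that a factor binds.

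After filtering, 883 of 1169 control barcodes and 936 of 1212 LIP barcodes remained, with a median of 10845 and 5595 UMIs (unique molecular identifiers, each standing for 1 captured transcript). A single barcode among those kept occurred in both libraries. Cells were grouped without the 10 members, because all of them were among the variable genes and Postn had served the study itself as a mark of osteogenic cells. Fibroblast-like cells (101 control, 27 LIP) were led by Clec3b, Dpt, Col14a1 and Dcn, and bone-lineage-like cells (20 control, 31 LIP) by the bone matrix genes Ibsp and Bglap together with Mmp13, Tnn and Col1a1. The classes were not made up alike in the 2 libraries. Among bone-lineage-like cells, Ibsp had a UMI in 3 of 20 control and 16 of 31 LIP cells, Bglap in 3 of 20 and 12 of 31, and Sp7, a transcription factor of osteoblasts, in 4 of 20 and 17 of 31. The unit of level below is CPM: the summed UMIs of a gene divided by every UMI of the same cells, times 1000000. The summed bone-lineage marker list (15 genes) stood at 4272 CPM in control and 29299 in LIP, while the fibroblast list (14 genes) stood at 27050 and 21538 CPM in the same cells. Of these control cells, 2 held 220 UMIs of the platelet gene Pf4. Among fibroblast-like cells, Clec3b had a UMI in 82 of 101 control and 14 of 27 LIP cells, and the summed Schwann marker list (12 genes) stood at 220 CPM in control and 1077 CPM in LIP. In the same cells the cartilage list (9 genes) stood at 81.2 and 764 CPM and the osteoclast list (8 genes) at 393 and 884 CPM. The 18 control cells of this class without a UMI of Clec3b or Pi16, at a median of 8703 UMIs, had no UMI of Mfap4 or Ctgf. The 10 such LIP cells held 229 and 70 UMIs of these. All are counted in the shares and levels of the class below, and what the 18 control cells are was not tested. The part of these differences in makeup in the ratios between libraries was not tested, except where a value without the cells concerned is given.

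**Figure D1:**
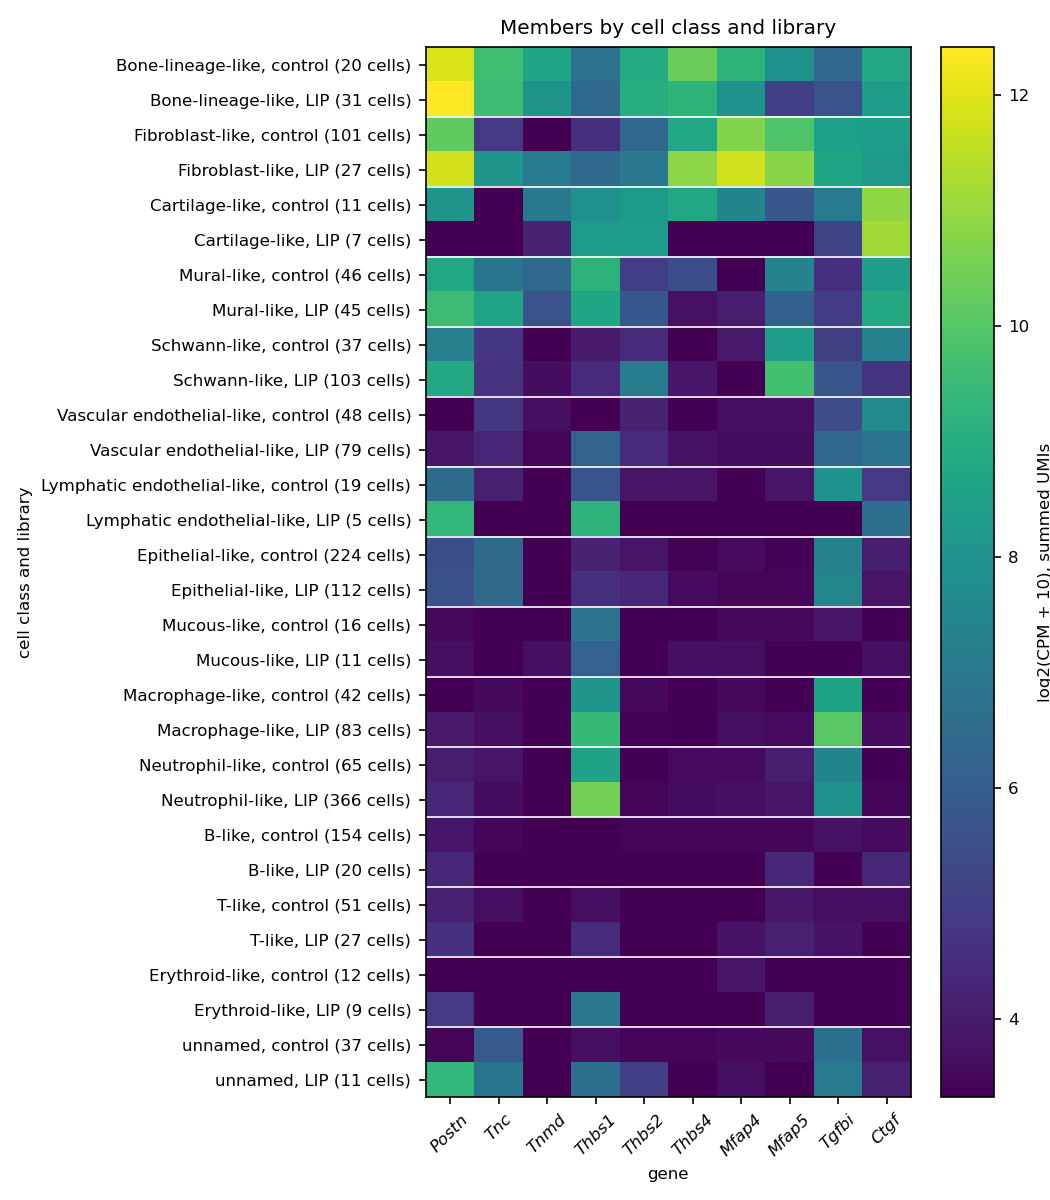
Level of each member (columns) in each cell class and library (rows, with the number of cells), as log2(CPM + 10) of UMIs summed over cells, dark to bright. Postn was brightest in bone-lineage-like and fibroblast-like cells, Thbs1 and Tgfbi in myeloid cells of the LIP library, and Ctgf in cartilage-like cells.

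Postn was carried by the stroma. In the control library its level was 3794 CPM (3560 to 4038) in bone-lineage-like cells, 1149 CPM in fibroblast-like cells, 426 CPM in mural-like cells and 251 CPM in cartilage-like cells. In the LIP library it was 5437 CPM (5282 to 5595) in bone-lineage-like cells, 3531 CPM in fibroblast-like cells and 736 CPM in mural-like cells, with no UMI in the 7 cartilage-like cells. The order bone-lineage-like, fibroblast-like and mural-like held for whole classes in both libraries with intervals that did not overlap. It did not hold for every part of the bone-lineage-like class, in a split chosen after values had been seen. Cells of that class with a UMI of Ibsp or Bglap stood below the fibroblast-like class, at 786 CPM (4 control cells) and 2099 CPM (16 LIP cells). Those without either stood at 4575 CPM (16 control cells) and 10045 CPM (15 LIP cells). B-like cells, which should lack the gene, showed it at 4.34 CPM in control and 10.1 CPM in LIP.

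Postn had a UMI in a larger share of the fibroblast-like cells in LIP, where these cells were also deeper. It had a UMI in 52 of 101 control cells (51.5%, 41.3 to 61.6) and in 23 of 27 LIP cells (85.2%, 66.3 to 95.8), at median depths of 11096 and 16287 UMIs, while 4 of 154 control B-like cells (2.60%) at a median of 4761 UMIs had one. With each cell thinned to 1000 UMIs the shares were 32.3% and 57.7%, leaving out 2 control cells and 1 LIP cell with fewer. Unthinned, 50 of 83 control and 16 of 17 LIP cells with Clec3b or Pi16 had a Postn UMI. Among cells without either, 2 of 18 control and 7 of 10 LIP cells had one. The LIP level in fibroblast-like cells was 3.07-fold that of control, a log2 ratio of 1.62 (1.52 to 1.72), and it was 1.58 without the cell richest in Postn in each library.

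In bone-lineage-like cells Postn was already near its LIP share in control, with a UMI in 18 of 20 control and 28 of 31 LIP cells, so that the libraries differed in the height of single cells. The median cell stood at 2705 CPM in control and 2271 CPM in LIP, whereas the highest stood at 9639 and 39988 CPM. The LIP cell with most Postn held 1380 of the 4649 UMIs of its class, 29.7%. It carried 22 UMIs of Thbs2 and 1 of Tnc, and none of the other members. The next richest cell held 713 Postn UMIs. The log2 ratio of LIP over control was 0.52 (0.42 to 0.62) and 0.25 (0.14 to 0.37) without the richest cell of each library, and the medians ran the other way.

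Outside these classes Postn sat in narrower groups of cells. Mural-like cells with the pericyte gene Rgs5 had 1215 CPM in control and 1548 CPM in LIP, whereas mural-like cells with smooth muscle genes had 78.1 and 20.6 CPM, so the Rgs5 group carried nearly all of it. Schwann-like cells led by Scn7a and Cdh19, genes of Schwann cells that do not make myelin, went from 250 CPM (23 UMIs in 8 of 20 cells) in control to 1094 CPM (188 UMIs in 19 of 28 cells) in LIP, a log2 ratio of 2.13 with an upper bound of 2.82, while those led by Ncmap held 24.4 and 21.1 CPM. Among the 5 LIP lymphatic endothelial-like cells, 3 held 36 UMIs, 644 CPM. The epithelial level of 35.5 CPM in control rested on 1 cell with 187 of 219 UMIs, and that of 37.3 CPM in LIP on 1 cell with 82 of 96.

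**Figure D2:**
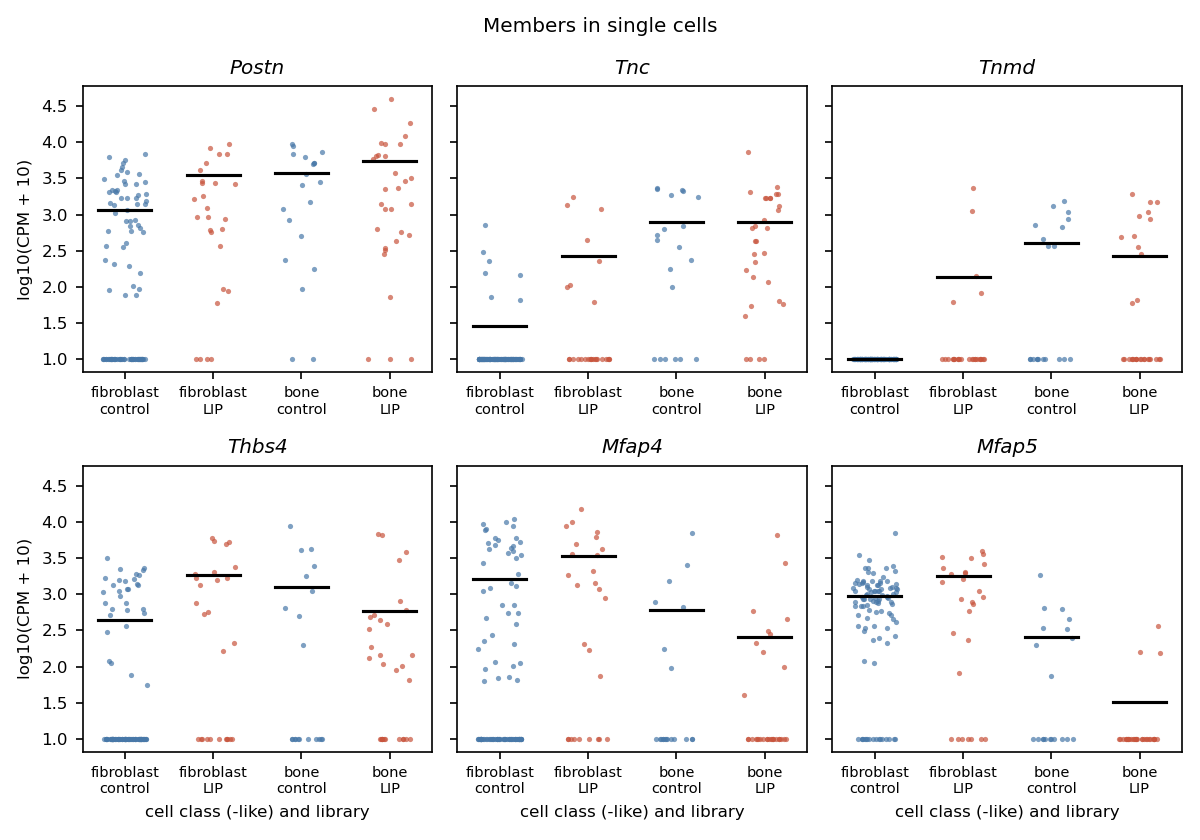
Level of 6 members in each single cell, as log10(CPM + 10), for fibroblast-like and bone-lineage-like cells of the control (blue) and LIP (red) libraries, with black bars at the level of the summed UMIs; cells at 1 had no UMI. Tnmd was absent from the 101 control fibroblast-like cells, Mfap5 was in 3 of 31 LIP bone-lineage-like cells, and the richest Postn cell reached 39988 CPM.

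Tnc, like Postn, was highest by class in bone-lineage-like cells, and there the libraries did not differ beyond counting error. It stood at 775 CPM (201 UMIs in 14 of 20 cells) in control and 768 CPM (657 UMIs in 27 of 31 cells) in LIP, a log2 ratio of -0.01 (-0.24 to 0.22). In the cells of this class without a UMI of Ibsp or Bglap, Tnc stood at 855 CPM (733 to 991) in control and 1102 CPM (997 to 1217) in LIP. The levels there were 737 and 803 CPM without the richest cell of each library. In fibroblast-like cells it went from 18.3 CPM (20 UMIs in 7 of 101 cells) to 255 CPM (131 UMIs in 8 of 27 cells), 13.9-fold, with a log2 interval of 3.12 to 4.56. Here 50 of the 131 UMIs came from 1 cell, and without the richest cell of each library the log2 ratio was 3.83. Mural-like cells with Rgs5 held 337 CPM in control and 814 CPM in LIP, of which 130 of 244 UMIs came from 1 cell. Epithelial-like cells carried it thinly but widely, at 77.5 CPM in 101 of 224 control cells and 77.3 CPM in 51 of 112 LIP cells.

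Tnmd was the narrowest member, found in 25 control and 30 LIP cells of all kept. Bone-lineage-like cells held 393 CPM (102 UMIs in 9 of 20 cells) in control and 254 CPM (217 UMIs in 12 of 31 cells) in LIP, a log2 ratio of -0.63 (-0.98 to -0.28). No fibroblast-like cell of the control library had a UMI, 0 of 101 cells, which allows a share of up to 2.97% and a level of up to 2.74 CPM, but 5 of 27 LIP cells did, at 126 CPM and at least 46.1-fold above that limit. Of those 65 UMIs, 43 came from 1 cell and 62 from the 10 LIP cells of the class without Clec3b or Pi16. The same 10 cells held 50 of the 51 LIP UMIs of Scx, a transcription factor of tendon and ligament. Of these Scx UMIs, 38 came from the same cell that held the 43 Tnmd UMIs. Tnmd was also in mural-like cells with smooth muscle genes, at 102 CPM in 14 of 27 control cells and 67.6 CPM in 8 of 23 LIP cells.

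Tnmd was found in a subset of the bone-lineage-like cells. In LIP the 12 cells with a Tnmd UMI held 1305 CPM of Tnc, 1426 CPM of Thbs4 and 684 CPM of Mfap4, against 472, 122 and 1.82 CPM in the 19 cells without, at median depths of 22818 and 25793 UMIs. Of the 208 Mfap4 UMIs in the cells with Tnmd, 126 came from 1 cell, and the level without it was 288 CPM. The cells with and without Tnmd also differed in bone matrix genes, with Ibsp in 3 of 12 and 13 of 19 cells. Bglap stood at 3.29 and 14884 CPM, and the part of this in the contrast was not tested. Postn stood at 5200 and 5568 CPM, and at 4673 and 3267 CPM without the richest cell of each subset. In control the pattern was not the same, as the 9 cells with Tnmd held 1099 CPM of Tnc but 288 CPM of Thbs4 and 8.46 CPM of Mfap4, against 503, 2097 and 1077 CPM in the 11 cells without. Without the richest cell of that subset, Thbs4 there was 1128 CPM and Mfap4 555 CPM. The 3 cells richest in Postn in LIP had no Tnmd UMI, and in the bone-lineage-like and fibroblast-like classes each cell with Tnmd also had Postn (9 control and 12 LIP bone-lineage-like cells and 5 LIP fibroblast-like cells).

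The thrombospondins, large secreted glycoproteins that bind matrix, cell receptors and, for Thbs1, latent TGF-beta, were led by different classes. Thbs1 was led by myeloid and mural-like cells. In neutrophil-like cells it went from 365 CPM (175 UMIs in 18 of 65 cells) in control to 1439 CPM (2403 UMIs in 181 of 366 cells) in LIP, a log2 ratio of 1.98 (1.76 to 2.21). Thinned to 1000 UMIs, 18.6% of control and 36.7% of LIP neutrophil-like cells had one, with unthinned shares of 27.7% and 49.5% at median depths of 4264 and 3712 UMIs, and none of 154 control B-like cells did.

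The neutrophil-like groups differed in Thbs1. Cells led by Acod1, Ccl3 and Il1b, genes of inflammatory activation, went from 215 CPM (27 UMIs in 6 of 30 cells) to 2213 CPM (2184 UMIs in 144 of 275 cells), a log2 ratio of 3.37 (2.82 to 3.97). Cells led by the granule genes Ltf, Ngp and Camp went from 433 CPM to 322 CPM, a log2 ratio of -0.43 (-0.74 to -0.11). The group with Acod1 was 30 control and 275 LIP cells and that with Ltf 23 and 48, so the class was mixed differently in the libraries. The remaining group of 12 control and 43 LIP cells held 0 and 15 UMIs. The platelet genes Pf4 and Ppbp, given because platelets store Thbs1, stood at 10.8 and 12.0 CPM in LIP neutrophil-like cells.

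Macrophage-like cells held Thbs1 at 254 CPM in control and 673 CPM in LIP. In control 118 of 151 UMIs came from 1 cell, so that the log2 ratio of 1.41 became 3.36 (2.86 to 3.91) without the richest cell of each library. Pf4 in this class was at 428 CPM in control and 176 CPM in LIP, and its part was not tested. Mural-like cells went from 574 to 400.1 CPM, a log2 ratio of -0.52 (-0.76 to -0.28), but their groups went apart, since those with smooth muscle genes went from 752 to 397 CPM and those with Rgs5 from 171 to 404 CPM. In fibroblast-like and bone-lineage-like cells Thbs1 stayed under 100 CPM in both libraries.

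Thbs2 followed Postn most closely among the members over the groups of at least 20 cells, which leave out the cartilage-like cells. It was highest in bone-lineage-like cells, at 459 CPM (14 of 20 cells) in control and 491 CPM (22 of 31 cells) in LIP, followed by cartilage-like cells at 296 and 322 CPM. Neither class differed between libraries beyond counting error, with log2 ratios of 0.10 (-0.20 to 0.40) and 0.12 (-0.60 to 0.85). Fibroblast-like cells held 69.4 CPM in control and 111 CPM in LIP. In the Scn7a group of Schwann-like cells it went from 21.7 CPM, 2 UMIs, to 349 CPM, 60 UMIs in 8 of 28 cells, a ratio of 16.1 with a log2 interval of 2.09 to 7.09.

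Thbs4, a thrombospondin of tendon and its muscle attachments, changed rank between the stromal classes. In control it was higher in bone-lineage-like cells, at 1272 CPM (330 UMIs in 9 of 20 cells), than in fibroblast-like cells, at 429 CPM (470 UMIs in 31 of 101 cells). In LIP the fibroblast-like cells were higher, at 1823 CPM (938 UMIs in 16 of 27 cells) against 586 CPM (501 UMIs in 19 of 31 cells). The log2 ratios of LIP over control were 2.09 (1.93 to 2.25) and -1.12 (-1.32 to -0.91), of opposite sign. One control bone-lineage-like cell held 157 of the 330 UMIs, and without the richest cell of each library the ratio in that class was -0.71, no longer 2-fold.

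Mfap4 and Mfap5, the microfibril members, marked fibroblast-like cells. Those cells held 90.4% of all Mfap4 UMIs of the control library and 88.5% of those of the LIP library. Their Mfap4 level was 1647 CPM (43 of 101 cells) in control and 3432 CPM (18 of 27 cells) in LIP, a log2 ratio of 1.06 (0.96 to 1.15), with 473 of 1766 LIP UMIs in 1 cell, and it was 0.82 without the richest cell of each library, no longer 2-fold. In bone-lineage-like cells it went from 589.9 CPM to 244 CPM, where 80 of 153 control UMIs and 126 of 209 LIP UMIs came from 1 cell each.

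Mfap5 was in most fibroblast-like cells, 84 of 101 in control and 20 of 27 in LIP, at 950.0 and 1772 CPM, a log2 ratio of 0.90 (0.77 to 1.03). Bone-lineage-like cells held 243 CPM (63 UMIs in 9 of 20 cells) in control and 22.2 CPM (19 UMIs in 3 of 31 cells) in LIP, a log2 ratio of -3.45 (-4.27 to -2.69). Among the members it had the widest gap between the stromal classes in LIP, 79.8-fold.

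Mfap5 was also a gene of myelin-bearing Schwann-like cells. The group led by Ncmap held 671 CPM (55 UMIs in 9 of 17 cells) in control and 1299 CPM (308 UMIs in 41 of 51 cells) in LIP, a log2 ratio of 0.95 (0.53 to 1.39). A further myelin group, found only in LIP with 24 cells, held 1323 CPM, while the Scn7a group held 21.7 and 11.6 CPM. Mfap4 was near absent from all Schwann-like cells, with 1 UMI in control and none in LIP. The fibroblast marker list summed to 2068 CPM in control and 1225 CPM in LIP Schwann-like cells, against 43525 and 46676 CPM in fibroblast-like cells.

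Tgfbi was led by macrophage-like cells, in which it went from 372 CPM (221 UMIs in 28 of 42 cells) in control to 1053 CPM (1633 UMIs in 69 of 83 cells) in LIP, 2.83-fold, with a log2 interval of 1.30 to 1.71 and a log2 ratio of 1.54 without the richest cell of each library. The macrophage-like cells were not alike in the libraries: the dendritic cell list (10 genes) summed to 31111 CPM in control and 12939 CPM in LIP, the osteoclast list to 126 and 1263 CPM, and the macrophage list (12 genes) to 13999 and 15362 CPM. The part of these shifts in the higher Tgfbi and Thbs1 of the class was not tested. Macrophage-like cells held 12.1% of Tgfbi UMIs of the control library and 57.2% of those of the LIP library. Fibroblast-like cells did not differ beyond counting error, at 339 and 393 CPM, with a log2 ratio of 0.21 (-0.04 to 0.46). Epithelial-like cells held 149.8 CPM in 177 of 224 control cells and 166 CPM in 72 of 112 LIP cells. Within the larger neutrophil-like groups the libraries did not differ beyond counting error, with 350.0 and 351 CPM in the Acod1 group and 93.6 and 101 CPM in the Ltf group, although the class as a whole went from 161 to 247 CPM. The intervals of these log2 ratios were -0.45 to 0.49 and -0.52 to 0.77. Bone-lineage-like cells held less Tgfbi than fibroblast-like cells, 69.4 and 39.8 CPM.

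Ctgf was highest in cartilage-like cells, at 1922 CPM (10 of 11 cells) in control and 2258 CPM (7 of 7 cells) in LIP, a log2 ratio of 0.23 (-0.04 to 0.50) that was 0.64 (0.27 to 1.02) without the richest cell of each library. Mural-like cells with smooth muscle genes held 437 CPM in control and 717 CPM in LIP, a log2 ratio of 0.72. Bone-lineage-like cells held 416 and 322 CPM and fibroblast-like cells 334 and 284 CPM. The fibroblast-like log2 ratio was -0.24 (-0.52 to 0.05), and it was -0.76 (-1.13 to -0.41) without the richest cell of each library. Vascular endothelial-like cells went from 197 to 102 CPM, a log2 ratio of -0.94, but 56 of 68 control UMIs came from 1 cell. The Scn7a group of Schwann-like cells held 282 CPM (26 UMIs in 3 of 20 cells) in control and 34.9 CPM (6 UMIs in 4 of 28 cells) in LIP.

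**Figure D3:**
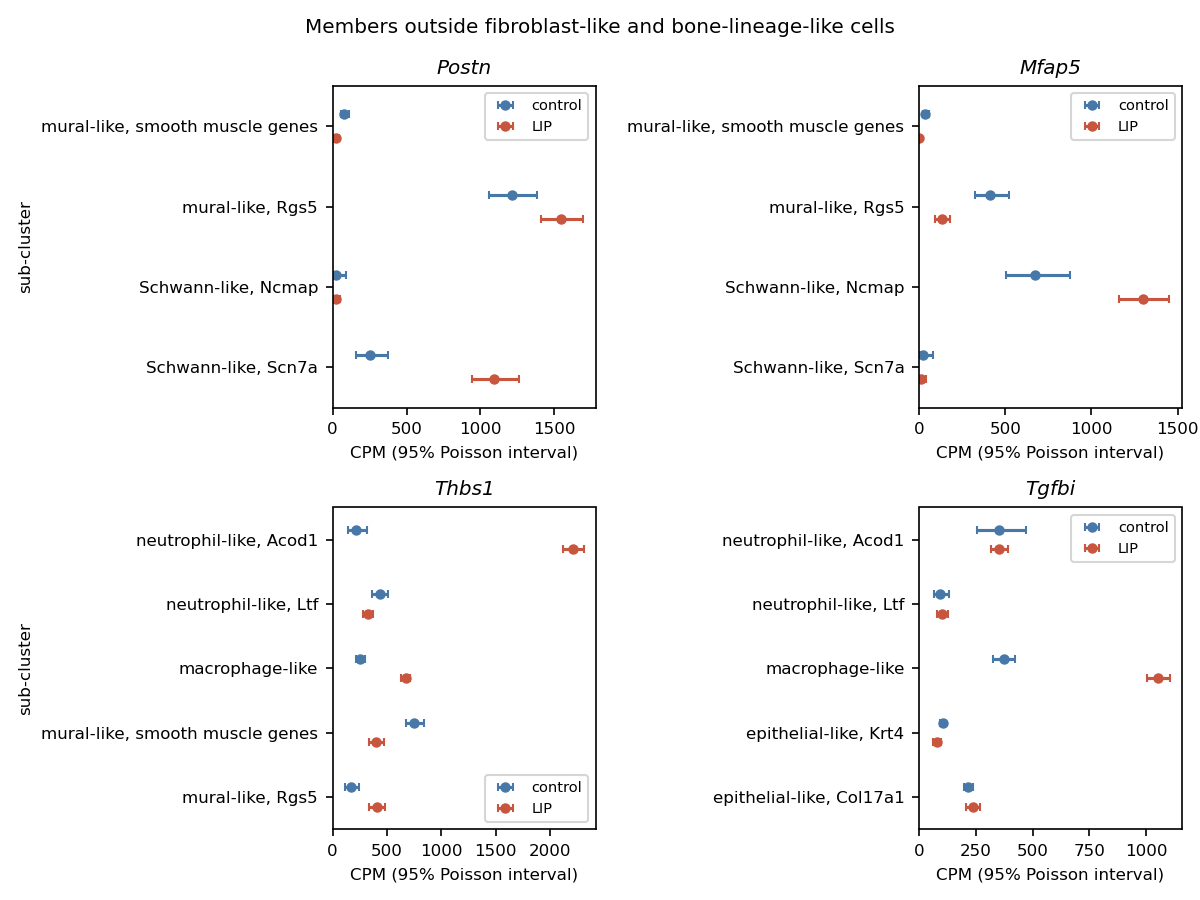
Levels of Postn, Mfap5, Thbs1 and Tgfbi in CPM with exact 95% Poisson intervals for sub-clusters outside the fibroblast-like and bone-lineage-like classes, in the control (blue) and LIP (red) libraries. Thbs1 stood at 2213 CPM in the Acod1 group of LIP neutrophil-like cells, Tgfbi at 1053 CPM in LIP macrophage-like cells, and Mfap5 at 1299 CPM in the Ncmap group of LIP Schwann-like cells.

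Most members were higher in LIP fibroblast-like cells, and most were not in LIP bone-lineage-like cells. Of the 10, 6 were at least 2-fold higher in LIP fibroblast-like cells (Postn, Tnc, Tnmd, Thbs1, Thbs4 and Mfap4) and 0 were at least 2-fold lower, while 3.31% of the 4887 genes with at least 50 UMIs were that much higher and 6.59% that much lower, 9.90% either way. The limit of 50 UMIs was set on both libraries together. Tnmd, with no UMI in control, passed it through LIP alone and could only be called higher. Thbs1 was sparse, with 25 UMIs in the 10 LIP cells without Clec3b or Pi16 and 14 in the 17 LIP cells with either. In control these counts were 3 and 12 UMIs. Among the 8427 genes with at least 20 UMIs, 4.41% were higher and 10.5% lower, 14.9% either way. The median log2 ratio was 1.34 over the members and -0.07 over all these genes. In bone-lineage-like cells 3 members (Thbs4, Mfap4 and Mfap5) were at least 2-fold lower and 0 higher, against 8.03% lower and 5.90% higher of 3087 genes, 13.9% either way, with medians of -0.50 and -0.08. Clustering with 15 dimensions in place of 30 brought Mfap4 there to -0.05 and Thbs4 to -0.54, neither of them 2-fold lower. With 1 library each, these counts were not tested. In fibroblast-like cells the count was 4 when cells without Clec3b or Pi16 were left out (17 LIP and 83 control cells remained), and it was made up of 3 higher (Postn, Tnc and Thbs4) and 1 lower (Ctgf, 183 against 393 CPM). Tnmd and Thbs1 then no longer reached 50 UMIs, and Mfap4 stood at a log2 ratio of 0.94. The share of all genes at least 2-fold apart in the remaining cells is not given here, so this count has no background beside it.

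In the other classes fewer members had 50 UMIs. Both that did in macrophage-like cells, Thbs1 and Tgfbi, were at least 2-fold higher in LIP, in cells whose dendritic and osteoclast marker sums also differed as given above, against 8.24% higher and 3.77% lower of 4988 genes, 12.0% either way. All 3 in Schwann-like cells, Postn, Thbs2 and Mfap5, were higher, against 3.74% higher and 3.70% lower of 2083 genes, 7.44% either way. Thbs2 there had 1 control UMI and 38 LIP UMIs once the richest cell of each library was left out. Mfap5 was not 2-fold higher within the Ncmap group or the Scn7a group, as given above. The class was mixed differently in the libraries, with 17 control and 51 LIP cells in the Ncmap group and 20 and 28 in the Scn7a group. The further myelin group had 0 and 24. In mural-like cells 1 of 6 was higher (Tnc) and 1 lower (Mfap5), against 3.87% and 3.39% of 3750 genes, 7.25% either way. In neutrophil-like cells 1 of 2 was higher (Thbs1), against 12.3% higher and 3.08% lower of 3277 genes, 15.4% either way.

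**Figure D4:**
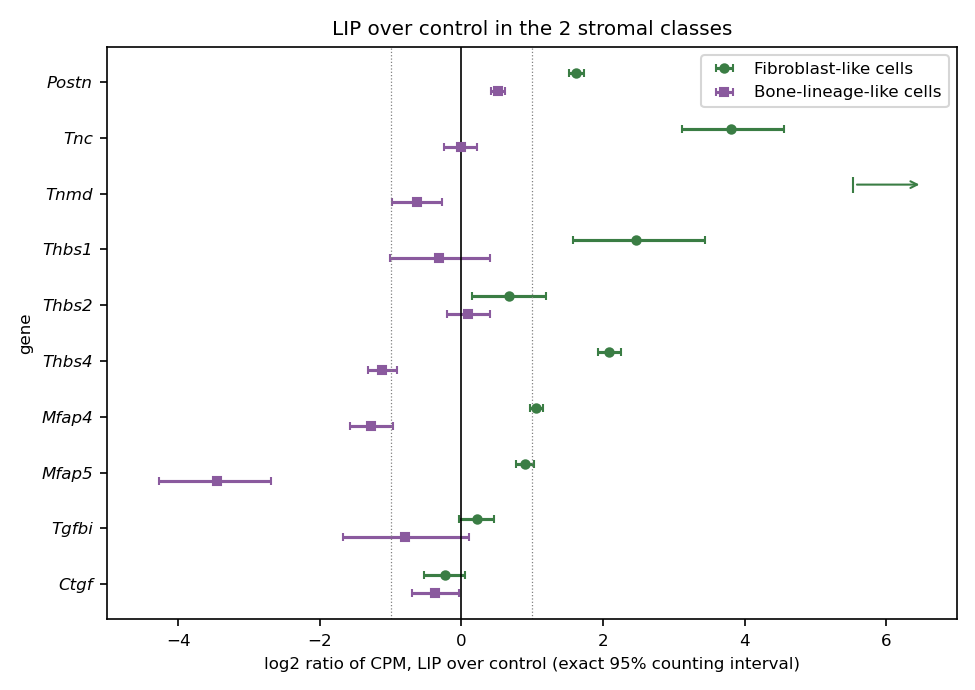
Log2 ratio of CPM, LIP over control, for each member in fibroblast-like (circles) and bone-lineage-like (squares) cells with exact 95% counting intervals; dotted lines mark 2-fold and the arrow shows that Tnmd had no UMI in control fibroblast-like cells, so that its ratio is at least 46.1-fold. Thbs4, Mfap4, Mfap5 and Tnmd lay on opposite sides of 0 in the 2 classes.

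Between the stromal classes the members formed opposite groups. In control, Postn, Tnc, Tnmd, Thbs2 and Thbs4 were at least 2-fold higher in bone-lineage-like than in fibroblast-like cells, with log2 ratios of 1.72 for Postn, 5.41 for Tnc, 2.73 for Thbs2 and 1.57 for Thbs4 and a Tnmd level at least 144-fold above the limit of its count of 0. Mfap4, Mfap5 and Tgfbi were lower, with log2 ratios of -1.48, -1.97 and -2.29. These were 8 of the 9 members with 50 UMIs, while 18.1% of 4289 genes were 2-fold apart, 5.27% higher and 12.9% lower. Tnmd reached 50 UMIs through the bone-lineage-like cells alone, so it could only be called higher. In LIP the log2 ratio was 0.62 (0.54 to 0.70) for Postn, 1.59 for Tnc, 1.01 for Tnmd and 2.15 for Thbs2, and it was -1.64 for Thbs4, -3.81 for Mfap4, -6.32 for Mfap5 and -3.30 for Tgfbi. There 7 of 10 members were 2-fold apart against 17.1% of 3790 genes, 6.20% higher and 10.9% lower. The gap in Postn and Tnc was narrower in LIP and those in Mfap4 and Mfap5 wider, and Thbs4 changed sign. These gaps are for whole classes. Of the control bone-lineage-like cells, the 16 without a UMI of Ibsp or Bglap held 942 Postn and 98 Tnmd UMIs. The 4 with one held 42 and 4. Cells with Ibsp or Bglap held Postn below the fibroblast-like class, at 786 CPM in control and 2099 CPM in LIP.

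**Figure D5:**
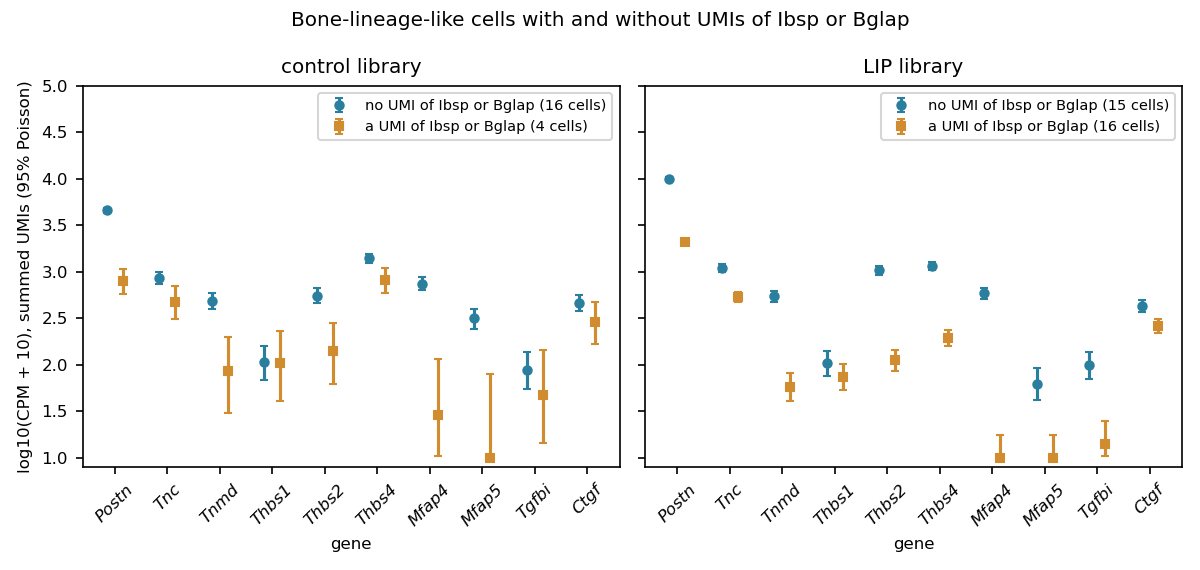
Level of each member, as log10(CPM + 10) of summed UMIs with 95% Poisson intervals, in bone-lineage-like cells without (circles) and with (squares) a UMI of Ibsp or Bglap, in the control and LIP libraries. In LIP, Postn stood at 10045 CPM without and 2099 CPM with them, and Mfap4 and Mfap5 had no UMI in the 16 cells with them.

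Within bone-lineage-like cells most members stood lower in cells with the bone matrix genes Ibsp or Bglap, but many were still found in them. This split was chosen after values had been seen. In LIP, the 15 cells without a UMI of Ibsp or Bglap held Postn at 10045 CPM, and the 16 cells with one held it at 2099 CPM, at median depths of 22517 and 29004 UMIs. The same cells held Tnmd at 537 and 48.4 CPM, Thbs2 at 1027 and 103 CPM, and Thbs4 at 1141 and 184 CPM. Mfap4 was at 582 CPM in the former and had no UMI in the latter. Tnc was closer, at 1102 and 526 CPM, as were Ctgf at 420 and 250 CPM and Thbs1 at 94.7 and 64.5 CPM. Of the 16 cells with Ibsp or Bglap, 13 had a UMI of Postn, 12 of Tnc and 9 of Thbs4. The cells without also held Aspn, a proteoglycan typical of the periodontal ligament, at 2578 against 46.4 CPM, and Tnn (tenascin-W) at 1244 against 115 CPM. Without the richest cell of each subset, Postn stood at 6862 and 1464 CPM, and Mfap4 in the cells without Ibsp or Bglap at 244 CPM. In control, 4 cells had a UMI of Ibsp or Bglap, and they held Postn at 786 CPM, 36 of 42 UMIs in 1 cell, against 4575 CPM in the other 16.

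Comparing only the bone-lineage-like cells without Ibsp or Bglap changed the ratios of LIP over control. The log2 ratio was then 1.13 (1.03 to 1.24) for Postn and 0.92 (0.61 to 1.24) for Thbs2. It was -0.29 (-0.51 to -0.07) for Thbs4 and -0.34 (-0.65 to -0.03) for Mfap4, so that neither was 2-fold lower, and 0.18 (-0.18 to 0.54) for Tnmd, with a change of sign. Mfap5 remained lower, at -2.53 (-3.36 to -1.77). Tnc in these cells stood at 855 CPM (733 to 991) in control and 1102 CPM (997 to 1217) in LIP. Some of these values rested on single cells. With the richest cell of each library left out, Postn stood at 4070 CPM in control and 6862 CPM in LIP, less than 2-fold apart. Thbs4 then stood at 692 and 808 CPM, so that LIP was no longer lower. Tnc was at 737 and 803 CPM, Thbs2 at 397 and 847 CPM and Mfap4 at 370 and 244 CPM. Among fibroblast-like cells, keeping only those with Clec3b or Pi16 left Postn at 1.62, Thbs4 at 1.93 and Tnc at 3.42.

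Members were often found in the same single cells of the fibroblast-like and bone-lineage-like classes, but not every pair was. The median cell had UMIs of 4 members in control fibroblast-like cells, 6 in LIP fibroblast-like cells, 5 in control bone-lineage-like cells and 6 in LIP bone-lineage-like cells, at different depths. With each cell thinned to 3000 UMIs, Tnc was found in 20 of 26 LIP bone-lineage-like cells with Postn and in 1 of the 5 without. Thbs2 was found in 13 of the same 26 and in none of the 5. In control fibroblast-like cells thinned alike, Mfap5 was found in 41 of 45 cells with Postn and in 29 of 47 without, and Mfap4 in 23 of 45 and 11 of 47. Other pairs went the other way or did not differ: in LIP fibroblast-like cells thinned alike, Thbs2 was found in 5 of 18 cells with Postn and 5 of 8 without, Tgfbi in 8 of 18 and 4 of 8, and Ctgf in 4 of 18 and 2 of 8. In sparse counts these are descriptions, since richer cells show more of every gene.

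The relatives of the members, in lists set up with results of these data known, had medians nearer 0 than the members in fibroblast-like cells, where the member median was 1.34. Of 18 microfibril and elastic fibre genes measured in fibroblast-like cells, 4 were at least 2-fold higher in LIP, namely Eln (elastin, from 1717 to 7179 CPM, log2 2.06), Fbn2 (2.90), Mfap2 (1.24) and Emilin1 (1.21), and 1 was lower, Ltbp4 (-1.40). Of 13 other matricellular genes measured, Spp1 (osteopontin, 13.7 to 264 CPM), Smoc2 and Spon1 were higher and Nov (139.6 to 35.0 CPM) was lower. Of 11 ligament genes and regulators, Scx (3 to 51 UMIs), Aspn (1.49), Tgfbr2 (1.20) and Bmp1 (1.01), a protease that acts on procollagen, were higher. Of the 51 LIP UMIs of Scx, 38 came from 1 cell. The medians of these lists were 0.58, 0.21 and 0.54 against -0.07 over all genes, and none of 7 receptor genes measured was 2-fold apart.

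In bone-lineage-like cells the same lists leaned the other way. Of 11 matricellular genes measured, Wisp1 (2.03) and Cyr61 (1.19) were higher in LIP, and Smoc2 (-2.33), Spp1 (21328 to 7154 CPM, -1.58), Wisp2 (-1.50) and Spon2 (-1.05) were lower. Of 15 microfibril genes, Ltbp2 (1.54) was higher and Fbln2 (-1.52) and Ltbp4 (-1.14) were lower. Of 10 ligament genes and regulators, Bmp1 (1.49) was higher and Tgfbr2 (-1.38), Tgfb2 (-1.31), Tgfbr1 (-1.27) and Twist1 (-1.03) were lower, and of 6 receptors none was 2-fold apart. List medians were -0.50, -0.23, -0.68 and -0.40 against -0.50 over the members and -0.08 over all genes, so the ligament list lay further from 0 than the members.

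Across 20 groups of at least 20 cells, each a class in a library, the genes whose level on the log2(CPM + 10) scale was most like that of Postn were collagen genes. Among 12719 genes, Pearson's r was 0.98 for Col5a1, 0.97 for Col1a2, 0.97 for Col6a1, 0.96 for Col3a1 and 0.96 for Col1a1. Among the members it was 0.92 for Thbs2, 0.85 for Thbs4, 0.84 for Tnc, 0.82 for Tnmd, 0.79 for Mfap5, 0.77 for Mfap4, 0.76 for Ctgf, 0.11 for Thbs1 and 0.07 for Tgfbi. The points share libraries and differ in depth, so these values rank genes and carry no test. Cartilage-like, erythroid-like, lymphatic endothelial-like and mucous-like cells were too few to enter. The cartilage-like cells (11 control, 7 LIP) had the highest Ctgf and the second highest Thbs2 level, with no Postn UMI in LIP. Over the groups that entered, Thbs1, led by mural-like cells in control and neutrophil-like cells in LIP, and Tgfbi, led by macrophage-like cells, stood apart from the other 8.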

How the data were processed

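The authors deposited, per library, a matrix of raw UMI counts per gene and barcode. Per the paper's methods and the file headers, reads of the 10x 3′ v3 kit were counted with Cell Ranger (3.1.0 in the matrix header) on mm10. Barcodes with 200 to 7500 genes, at most 60000 UMIs and at most 10% mitochondrial UMIs were kept, the limits the authors used. Seurat 5.3.0 integrated the libraries (2000 variable features without the 10 members, 30 dimensions), clustered at resolution 0.1 and sub-clustered at 0.2. A sub-cluster was named from 21 marker lists if at least 3 markers were in 25% of its cells and over 2-fold above the rest, with the class of most markers among its top 10 genes; 37 control and 11 LIP cycling cells stayed unnamed. UMIs were summed per class and library and divided by all UMIs of those cells (CPM). Intervals are exact (Poisson for levels, Clopper-Pearson for shares, conditional binomial for ratios; scipy 1.17.1), and counts of 0 were set against a limit of 3 UMIs over the group. The ratio intervals were tested on simulated Poisson counts, the model they rest on. That test could not show how they hold where 1 cell carries many of the UMIs. The whole-table comparison used genes with at least 50 UMIs. Scrublet (scanpy 1.11.5) marked 4 control cells and 1 LIP cell as doublets, under 0.5% in both, so it was not relied on, and doublets may remain. Members, lists and splits were chosen with earlier results of these data known. Named from the lists were the genes at least 2-fold apart, within up to 4 highest and lowest per list, except for an item that is not reported here. Settings were varied 1 at a time as given in the closing section.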

Additional observations from a re-analysis of the deposited data

Results flagged for a closer look

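A group of 4 members moved in opposite directions in the stromal classes, which was not tested, since each condition had 1 library. Thbs4 had a log2 ratio of LIP over control of 2.09 in fibroblast-like cells and -1.12 in bone-lineage-like cells. Mfap4 had 1.06 and -1.27, and Mfap5 had 0.90 and -3.45. Tnmd was at least 46.1-fold higher in LIP fibroblast-like cells, against a limit of 3 UMIs in control, and had a log2 ratio of -0.63 in bone-lineage-like cells. In fibroblast-like cells of LIP, the 10 cells without Clec3b or Pi16 held 62 Tnmd UMIs, 43 of them in 1 cell. The 17 cells with either gene held 3. In the bone-lineage-like class, LIP cells held more Ibsp and Bglap. With cells holding either left out, the ratios were -0.29 for Thbs4, -0.34 for Mfap4, -2.53 for Mfap5 and 0.18 for Tnmd. When the richest cell of each library was left out as well, Thbs4 stood at 692 CPM in control and 808 CPM in LIP. Over 11 alternative settings, the bone-lineage-like ratio ranged from -7.06 to -0.05 for Mfap4 and from -3.33 to -0.29 for Thbs4. Over 10 settings it ranged from -5.72 to -2.53 for Mfap5 and from -1.19 to 0.18 for Tnmd. For those genes, a setting with no UMI in a library gave no ratio and is outside the range. The Mfap4 value of -0.05 (-0.30 to 0.20) came with 15 dimensions, where the class held 33 control and 38 LIP cells.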

How the results depend on the processing

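The Postn log2 ratio of LIP over control in fibroblast-like cells (1.62) was 1.43 with at most 5% mitochondrial UMIs, 1.49 without cells marked by Scrublet and 1.27 with each cell weighted equally. In bone-lineage-like cells (0.52) it was 0.82 with 15 dimensions, 0.70 with at most 5% mitochondrial UMIs, 0.95 with each cell named by its highest marker score, 0.74 with equal weights, 0.25 without the richest cells and 1.13 without cells holding Ibsp or Bglap. Postn in bone-lineage-like over fibroblast-like cells in LIP (0.62) was 0.25, 0.71, 0.13, 1.33, 0.34 and 1.51 under the same settings in the same order, and 0.40 with only fibroblast-like cells holding Clec3b or Pi16. In control (1.72) it was 1.06 with 15 dimensions, 1.44 with at most 5% mitochondrial UMIs, 0.70 by marker score, 1.85 with equal weights, 1.99 without Ibsp or Bglap cells, 1.49 with only Clec3b or Pi16 cells and 1.55 without Scrublet cells. Postn kept its direction in all of these, and the cause of the shifts was not tested. In the bone-lineage-like cells without Ibsp or Bglap, 1380 of the 3608 LIP UMIs of Postn came from 1 cell. The Tnmd ratio in bone-lineage-like cells (-0.63) changed sign to 0.18 without Ibsp or Bglap cells. The count of members at least 2-fold apart in fibroblast-like cells lay between 4 and 7, and the share of all genes under each setting is not given beside it. The Ibsp or Bglap and Clec3b or Pi16 alternatives were chosen after seeing the data. By marker score, the bone-lineage-like class held 6 control and 23 LIP cells. Without cells marked by Scrublet, cells were clustered anew, and the fibroblast-like class held 89 control and 24 LIP cells in place of 101 and 27. Leaving out a replicate was not possible with 1 library per condition. No paired analysis was possible because each condition had 1 library and the result comes from no test. Mfap4 in bone-lineage-like cells (-1.27) was -0.05 with 15 dimensions, -4.44 with at most 5% mitochondrial UMIs and -7.06 by marker score, and Thbs4 (-1.12) was -0.54 and -3.33 with 15 dimensions and with at most 5% mitochondrial UMIs. The bone-lineage-like class held 20 control and 31 LIP cells, which limits the precision of its values.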
